A study of Rattus norvegicus with 6 samples.

Results

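Cell adhesion molecules of the immunoglobulin superfamily were followed in rat airway basal cells grown in EpiX or BEGM. The 10 genes were Ncam1, L1cam, Alcam, Icam1, Vcam1, Bcam, Mcam, Cadm1, Esam and Thy1, out of 15037 named genes on the array. They were taken by gene symbol from the platform annotation, with the brightest probe set where a gene had several. Each of the 10 genes had 1 probe set, so the choice by brightness removed none. The set was chosen from the family with the EpiX minus BEGM differences of these same arrays already known, and Bcam and Ncam1 were put side by side because they differed in opposite directions. Their differences are therefore given as descriptions, and the counts of members past the threshold of the fit over all genes are given as counts only.

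The cells came from the tracheal lining of wild-type male Sprague Dawley rats 12 weeks old, and 3 lines were made, each pooled from 3 rats. Each line was divided between EpiX and BEGM, both media for airway epithelial cells, and RNA was taken on day 8. The groups were 3 EpiX arrays and 3 BEGM arrays, and no medium-free or freshly isolated cells were compared here. Basal cells sit on the basement membrane and renew the airway epithelium. Levels are the authors' deposited signals, taken as log2, so a difference of 1 is a 2-fold change if that base is right.

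Immunoglobulin-family adhesion molecules carry extracellular immunoglobulin domains that bind like molecules, integrins or matrix on neighbouring cells. In airway tissue Bcam is known from basal cells, which it ties to laminin in the basement membrane, whereas Ncam1 and Thy1 are better known from neural and mesenchymal cells and Esam and Mcam from vessels. Icam1 and Vcam1 hold leukocytes and are induced by inflammatory cytokines through NF-kappaB.

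The epithelial identity of the cultures was checked first. The basal keratins Krt17 and Krt14 were bright in both media. Krt17 was at 17.72 to 17.95 in EpiX and 17.49 to 17.90 in BEGM. The keratin Krt15 was at 16.34, 15.53 and 14.06 on the EpiX arrays and 12.15, 11.43 and 9.99 on the BEGM arrays. It rose in EpiX (4.12 ± 0.71, SE, limma adjusted p = 0.0229), as did the basal marker Aqp3 (4.09 ± 0.22, adjusted p = 0.00138). Of 12 measured basal cell markers, 6 rose in EpiX by limma and 0 fell, where 2.63% of all genes rose. At an unadjusted p under 0.05, 7 of the 12 were higher and 0 lower. The count of rises was 3 without EpiX array 1, 2 without EpiX array 2, 3 without BEGM array 2 and 4 without BEGM array 3. The mean level over these 12 markers was 13.02 to 13.15 on the EpiX arrays and 11.30 to 11.85 on the BEGM arrays.

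Ncam1, the neural cell adhesion molecule, had the widest separation between the media of the 10 genes. Its level was 5.91, 5.88 and 6.30 on the EpiX arrays 1, 2 and 3, against 11.37, 13.91 and 14.21 on the BEGM arrays 1, 2 and 3. The EpiX arrays lay close together and the groups were 5.07 apart at their nearest, while BEGM array 1 was below BEGM arrays 2 and 3. The mean difference was -7.13 ± 0.70 (SE, n = 3 per medium), about 140.4-fold lower in EpiX, and 7 of the 15037 genes had a more negative one. Without BEGM array 1 the difference was -8.03.

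Thy1, the surface glycoprotein CD90 found on fibroblasts, neurons and thymocytes, was the next lowest in EpiX. It was at 5.26, 6.06 and 8.12 on the EpiX arrays and at 8.65, 8.67 and 12.50 on the BEGM arrays. Number 3 was the highest array in both media, and EpiX array 3 came within 0.53 of the lowest BEGM array. The mean difference was -3.46 ± 1.17 (SE), and the same-numbered arrays differed by -3.40, -2.62 and -4.38. Without BEGM array 3 it was -2.18, and without EpiX array 3 it was -4.29.

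Cadm1, which joins neighbouring epithelial and nerve cells by binding itself and other family members, was at 8.67, 8.63 and 9.23 on the EpiX arrays. On the BEGM arrays it was at 9.57, 10.76 and 12.00. The groups did not overlap, but they were only 0.34 apart at their nearest, between EpiX array 3 and BEGM array 1. The mean difference was -1.93 ± 0.57 (SE), and -1.32 without BEGM array 3. Without BEGM array 1 it was -2.54.

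Mcam, also called CD146, is an adhesion molecule of vessel walls and pericytes. It was at 4.91, 4.85 and 5.56 on the EpiX arrays and at 6.0, 7.16 and 6.67 on the BEGM arrays. The groups were 0.44 apart, and the mean difference was -1.5 ± 0.33 (SE). Esam, a junction molecule of endothelial cells, was at 6.33, 5.87 and 6.14 on the EpiX arrays and at 6.87, 8.44 and 7.57 on the BEGM arrays. Its groups were 0.54 apart, with a mean difference of -1.51 ± 0.38 (SE). For both genes BEGM array 2 was the highest array and BEGM array 1 the lowest of its medium.

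Bcam, the Lutheran glycoprotein and a receptor for the laminin alpha 5 chain, went the other way. It was at 12.46, 12.11 and 12.58 on the EpiX arrays, against 9.21, 9.07 and 9.53 on the BEGM arrays. The arrays of each medium lay within 0.47 of each other and the groups were 2.58 apart. The mean difference was 3.11 ± 0.19 (SE), about 8.65-fold higher in EpiX, and 23 of the 15037 genes had a larger one. The same-numbered arrays differed by 3.25, 3.04 and 3.05, and BEGM array 1 did not stand apart from the other BEGM arrays for this gene. Lama5, which encodes the laminin chain that Bcam binds, did not pass the test (0.31 ± 0.22, SE; limma adjusted p = 0.472). Lama5 was named after its values were seen.

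The other 4 genes overlapped between the media. Alcam, which binds itself and the lymphocyte receptor CD6, was bright throughout, at 13.14, 12.61 and 12.42 on the EpiX arrays and 13.00, 12.16 and 11.68 on the BEGM arrays. Each EpiX array was above the BEGM array of its number, by 0.14, 0.45 and 0.74. L1cam, a neuronal adhesion molecule, was at 4.88, 5.12 and 5.16 on the EpiX arrays and 4.90, 4.67 and 4.66 on the BEGM arrays. Its overlap came from number 1, where the arrays differed by -0.01, and its mean difference was 0.31 ± 0.15 (SE).

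Icam1, the ligand of leukocyte beta 2 integrins, was at 9.57, 10.03 and 10.05 on the EpiX arrays and at 9.65, 10.64 and 10.94 on the BEGM arrays. BEGM array 1 lay below EpiX arrays 2 and 3, and the mean difference was -0.53 ± 0.34 (SE). Without BEGM array 1 it was -0.91. Vcam1, the ligand of the integrin alpha 4 beta 1, was at 3.83, 3.81 and 3.96 on the EpiX arrays and 3.91, 3.96 and 4.16 on the BEGM arrays. It was the 1 member in the dimmest 25% of genes, with a mean difference of -0.14 ± 0.14 (SE), and without detection calls it could not be called present or absent.

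**Figure D1:**
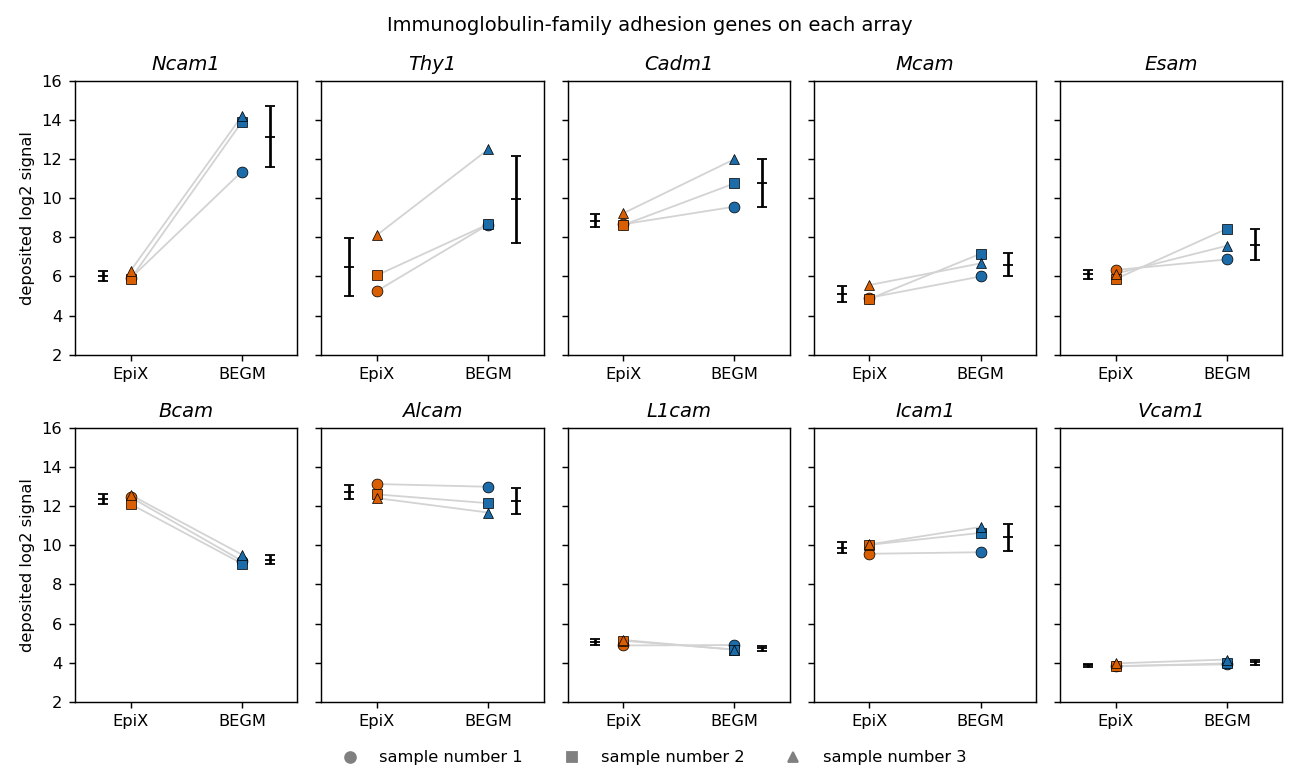
Deposited log2 signal (vertical axis) of each of the 10 adhesion genes on the EpiX arrays (orange, left) and BEGM arrays (blue, right). Symbols give the sample number, grey lines join arrays of the same number, and black bars are mean ± SD (n = 3). Ncam1 lies between 5.88 and 6.30 in EpiX and between 11.37 and 14.21 in BEGM, and Bcam is the 1 gene with all EpiX arrays above all BEGM arrays.

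In all, 1 member (Bcam) had every EpiX array above every BEGM array, and 5 members (Ncam1, Thy1, Cadm1, Mcam and Esam) had every EpiX array below. Over all 15037 genes the groups did not overlap for 28.0%, with 13.5% higher and 14.5% lower in EpiX. The limma fit over all genes put 3 of the 10 members past an adjusted p under 0.05, Bcam higher and Ncam1 and Mcam lower, where 5.78% of all genes passed (2.63% higher and 3.15% lower). Since the members were chosen with this difference known, nothing is read from these counts. Median differences were -1.02 over the members and 0.0022 over all genes.

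The number of members past the threshold changed with single arrays. It was 6 without BEGM array 1, which added Cadm1, Esam and Icam1, in a fit that called 2089 of all genes, against 869 with all arrays. It was 2, Ncam1 and Bcam, without any other single array, in fits that called 101 to 544 of all genes. The member nearest inside the threshold was Mcam, and the nearest outside it was Esam. The direction of each member was the same in every alternative setting in which it was measured, as the plot of differences with their ranges shows.

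**Figure D2:**
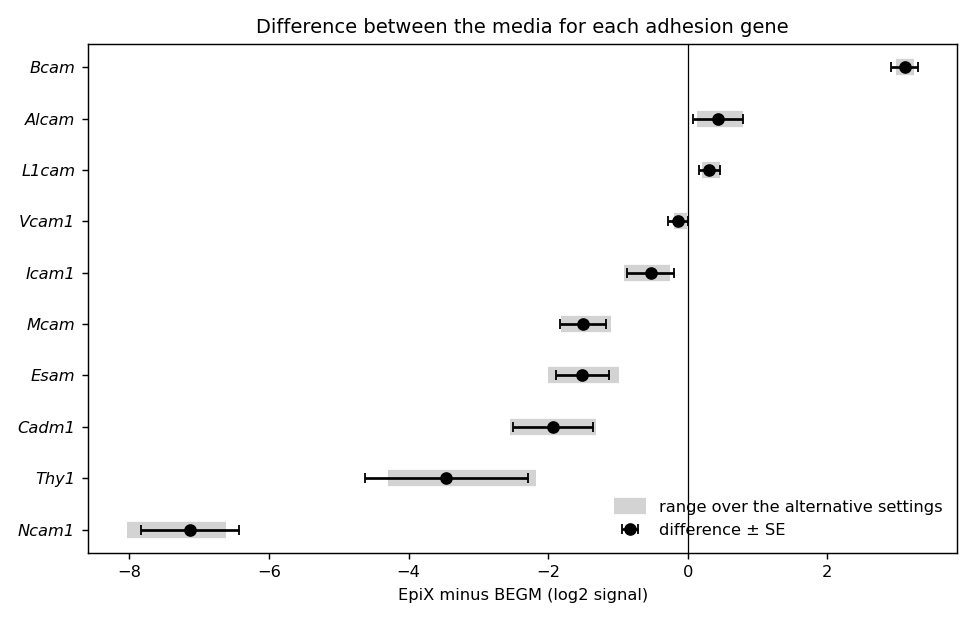
Difference between EpiX and BEGM (horizontal axis, log2 signal) for each adhesion gene, with its SE (n = 3 arrays per medium) and, in grey, the range over the alternative settings. No grey range crosses 0, and the range of Ncam1 runs from -8.03 to -6.61 while that of Vcam1 ends at -0.01.

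**Figure D3:**
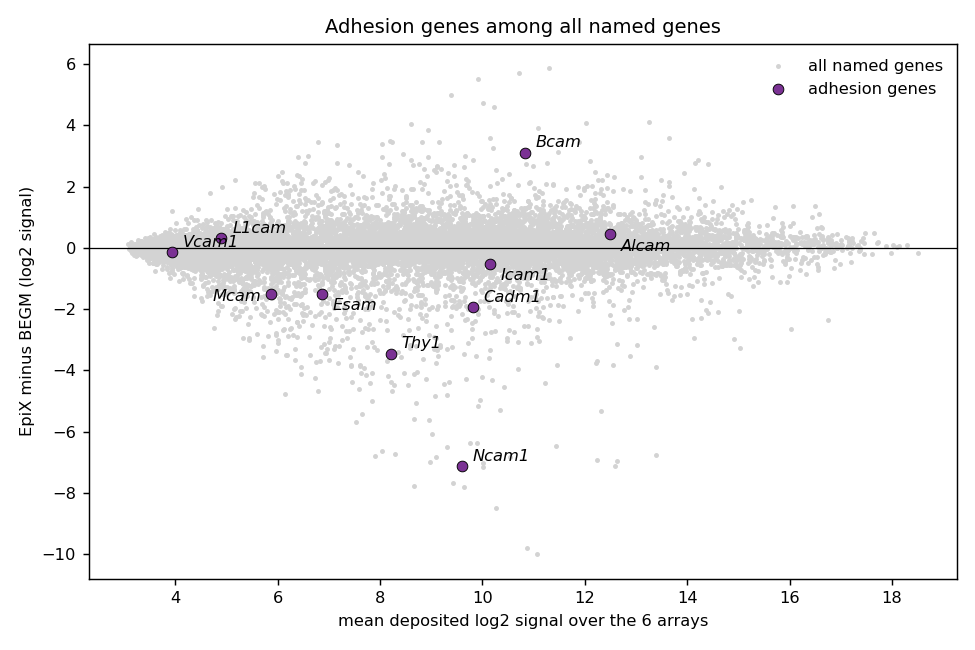
Mean deposited log2 signal over the 6 arrays (horizontal axis) against the difference EpiX minus BEGM (vertical axis, log2 signal) for 15037 named genes in grey, with the 10 adhesion genes in purple. Ncam1 sits near the lower edge at -7.13, Bcam near the upper edge at 3.11, and Alcam, Icam1, L1cam and Vcam1 lie in the dense band around 0.

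The rat genome places 6 of the 10 members on chromosome 8, by the RefSeq gene table of assembly GRCr8. These were Ncam1, Thy1, Cadm1, Mcam, Esam and Icam1, and they included all 5 members whose EpiX arrays lay below the BEGM arrays. Chromosome 8 held 6.03% of the named genes with a chromosome, and 14.8% of its genes had every EpiX array below every BEGM array, against 14.5% of all genes.

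The arrays of BEGM lay apart by different amounts for different members. BEGM array 1 was the lowest BEGM array for each of the 5 members below in EpiX, and EpiX array 3 was the highest EpiX array for 4 of them, Esam being the exception. The range over the BEGM arrays was 3.85 for Thy1, 2.84 for Ncam1, 2.44 for Cadm1, 1.57 for Esam and 1.16 for Mcam. It was 1.32 for Alcam, 1.29 for Icam1, 0.46 for Bcam, 0.25 for Vcam1 and 0.24 for L1cam.

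Markers of other cell types were read beside these genes, because a tracheal preparation can hold mesenchymal, vascular, nerve and immune cells. The mean over 15 fibroblast and mesenchymal markers was 6.40, 6.50 and 7.20 on the EpiX arrays and 7.70, 8.67 and 10.62 on the BEGM arrays. Number 3 was the highest array in each medium, as for Thy1. Of these markers 2 fell, Vim (-6.92 ± 1.33, SE; limma adjusted p = 0.0321) and the matrix protein Fn1 (-2.35 ± 0.47; adjusted p = 0.0379), and 0 rose. Over all genes 3.15% fell and 2.63% rose by limma. At an unadjusted p under 0.05, 8 of the 15 markers were lower and 0 higher. The falls numbered 0 without EpiX array 1, EpiX array 2 or BEGM array 2, with 5 lower at an unadjusted p under 0.05 in each of these fits, and 9 without BEGM array 1. The collagen gene Col1a1 was at 5.82, 5.14 and 5.56 on the EpiX arrays and 7.44, 8.32 and 12.34 on the BEGM arrays, and did not pass.

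Smooth muscle and pericyte markers averaged 5.49 to 5.71 on the EpiX arrays and 6.71 to 7.37 on the BEGM arrays. Of 13 measured, 4 fell and 0 rose by limma (6 and 1 at an unadjusted p under 0.05), where 3.15% of all genes fell. The falls numbered 2 without EpiX array 1 or EpiX array 2. Among the 4 falls with all arrays were Cnn1 (-7.0 ± 0.74, SE, limma adjusted p = 0.00649) and Tagln (-6.97 ± 0.53, adjusted p = 0.00223). Actin-binding genes of this kind are also made by epithelial cells that take on mesenchymal features. Of the 13 markers 10 had a negative difference and 3 a positive one. Myh11 (-0.09), Des (-0.29), Rgs5 (0.13), Myocd (0.68) and Notch3 (0.87) did not pass, and were named outside the rule for named genes stated below. The part of the mesenchymal and smooth muscle markers in the differences of Ncam1, Thy1, Cadm1 and Mcam was not tested. In these bulk samples, fewer cells of a type and less RNA per cell cannot be told apart.

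Endothelial markers, which bear on Esam and Mcam, averaged 4.36 to 4.62 on the EpiX arrays and 4.8 to 5.11 on the BEGM arrays, with 0 of 11 called by limma and 2 lower at an unadjusted p under 0.05. Without BEGM array 1, 1 of them fell. The receptor Tek differed by -0.9 ± 0.37 (SE, limma adjusted p = 0.209) and the claudin Cldn5 by 0.1 ± 0.15, and neither passed. The endothelial cadherin Cdh5 was at 3.52 to 3.96 on the EpiX arrays and 3.79 to 4.90 on the BEGM arrays. The receptor Kdr was at 4.39 to 4.59 on the EpiX arrays and 4.41 to 4.64 on the BEGM arrays. Cdh5 and Kdr were named outside the rule for named genes stated below. The part of the endothelial markers in the differences of Esam and Mcam was not tested. Eng, which mesenchymal cells also express, was at 5.41, 5.39 and 5.99 on the EpiX arrays and 6.18, 9.20 and 11.04 on the BEGM arrays and did not pass (adjusted p = 0.144).

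Leukocyte markers averaged 4.58 to 4.64 on the EpiX arrays and 4.54 to 4.71 on the BEGM arrays. The 2 brightest of these markers, Cd68 (1.04 ± 0.64, SE) and Lyz2 (0.42 ± 0.22), did not pass, and both overlapped between the media. The common leukocyte antigen Ptprc was at 3.78 to 4.08 on the EpiX arrays and 4.01 to 4.14 on the BEGM arrays. Among 13 markers 1 fell by limma, Cd74, and 0 rose, where 3.15% of all genes fell. At an unadjusted p under 0.05, 1 of the 13 was lower and 0 higher. Cd74, the class II invariant chain, was at 4.31, 4.04 and 4.85 on the EpiX arrays and 5.45, 6.14 and 5.55 on the BEGM arrays. It lost the call without EpiX array 1, EpiX array 2, BEGM array 2 or BEGM array 3, without both arrays of any 1 number, with each array centred on its median and with the sample number as a block. Of 11 neuroendocrine, neuronal and Schwann cell markers, which bear on Ncam1 and L1cam, 1 fell and 0 rose by limma (3 and 0 at an unadjusted p under 0.05). That gene was the ubiquitin hydrolase Uchl1, at 4.30, 4.26 and 4.96 on the EpiX arrays and 8.72, 12.00 and 13.15 on the BEGM arrays (-6.78 ± 1.03, SE; limma adjusted p = 0.0165). It lost the call without EpiX array 1, EpiX array 2, BEGM array 2 or both arrays of number 2 or 3, and without BEGM array 1 there was 1 rise. The 2 brightest genes of this list, Tubb3 (-0.94 ± 0.36, SE) and Erbb3 (1.19 ± 0.52), did not pass, although the groups of Tubb3 did not overlap. The neuroendocrine granule genes Chga and Chgb did not pass (-0.13 and 0.10), and neither did the Schwann cell factor Sox10 (0.03). Ptprc, Chga, Chgb and Sox10 were named outside the rule for named genes stated below.

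**Figure D4:**
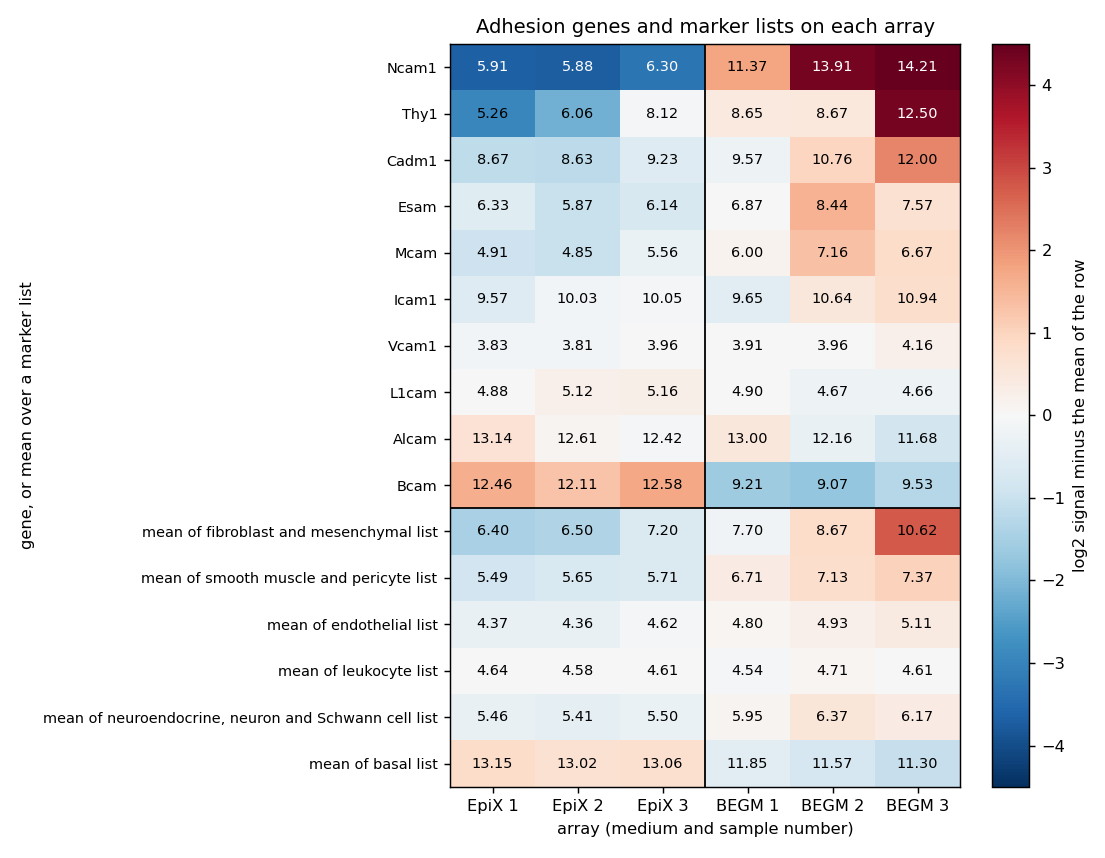
Deposited log2 signal on each array (columns, EpiX left of BEGM) for the 10 adhesion genes and the mean over each marker list (rows), printed in each cell and coloured by its distance from the mean of the row. Ncam1, Thy1 and Cadm1 are darkest red on BEGM arrays 2 and 3 or BEGM array 3, the fibroblast and mesenchymal list is highest on BEGM array 3 at 10.62, and Bcam and the basal list are red on the EpiX arrays.

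The genes most like Ncam1 over the 6 arrays, among 783 genes with an SD of at least 1, were Myl9, Acta2, Prnd, Nes and Nexn, with Pearson r of 0.9966 to 0.9984. Myl9 encodes a myosin light chain, Acta2 the smooth muscle actin, Nes the intermediate filament nestin and Nexn an actin-binding protein. Those most like Bcam were Gpsm2, Bcl11b, Aqp3, Kcnj15 and Chst15, with r of 0.9879 to 0.9963. Gpsm2 orients the mitotic spindle and Aqp3 is the water channel of basal cells. These values describe 6 arrays in 2 separate groups, so they mostly record the difference between the media.

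The rest of the family was then examined in a list of 69 other immunoglobulin-family adhesion genes, of which 59 were measured. By limma 1 rose in EpiX, 7 fell and 51 did not pass, so 13.6% of the list passed, against 5.78% of all genes. The fallers with the largest differences were Nectin3, an adherens junction molecule (-2.25 ± 0.39, SE; adjusted p = 0.0246), and Jam3, a junctional adhesion molecule (-1.93 ± 0.33; adjusted p = 0.0230). Cd200, a ligand that restrains myeloid cells (-1.45 ± 0.32; adjusted p = 0.0482), also fell.

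Nectin3 was at 9.29, 10.14 and 10.70 on the EpiX arrays and 11.79, 12.75 and 12.34 on the BEGM arrays. Jam3 was at 7.48, 8.13 and 7.89 on the EpiX arrays and 9.25, 9.59 and 10.46 on the BEGM arrays. The groups of neither gene overlapped. The other falls were those of Igsf9 (-1.37), neuroplastin, Nptn (-1.04), embigin, Emb (-0.87), and the coxsackievirus and adenovirus receptor Cxadr (-0.64), the last a tight junction molecule of epithelium. The 1 rise was that of Igsf8, which binds tetraspanins (0.95 ± 0.21, SE; limma adjusted p = 0.0481). Igsf8 lost the call without any 1 of the EpiX arrays, without BEGM array 2 or BEGM array 3, and with a robust trended variance. The call was also lost without both arrays of number 2 or 3. Emb and Cxadr were named after their values were seen.

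Larger differences that did not pass, also chosen after their values were seen, were those of Clmp, a relative of Cxadr, and Cd48 (-3.30 ± 0.75, SE; limma adjusted p = 0.0531), a receptor known from leukocytes. Cd48 was at 8.02, 7.37 and 7.57 on the EpiX arrays and between 9.28 and 12.60 on the BEGM arrays, and over the alternative settings its adjusted p was lowest at 0.00244 without BEGM array 1. It was highest at 0.473 with both number 2 arrays left out. Clmp was at 4.90, 4.72 and 5.01 on the EpiX arrays and 6.49, 9.18 and 10.13 on the BEGM arrays (-3.72 ± 0.84, SE; limma adjusted p = 0.0514). Its adjusted p was lowest at 0.000367 without BEGM array 1. It was highest at 0.479 with both number 2 arrays left out. Ceacam1, a carcinoembryonic antigen relative on luminal epithelium, was at 14.50, 15.65 and 15.13 on the EpiX arrays and 14.32, 12.80 and 12.42 on the BEGM arrays, and did not pass (1.92 ± 0.52; adjusted p = 0.0834).

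Some relatives of the members, chosen after their values were seen, are given with their differences. Ncam2, the second neural cell adhesion molecule gene, differed by -0.01 ± 0.21 (SE; adjusted p = 0.983), Cadm3 by 0.02 ± 0.15, Cadm4 by -0.36 ± 0.20 and Icam2 by -0.14 ± 0.17, and none of these passed in the limma fit. The L1-family gene Nfasc was at 5.10, 4.88 and 4.98 on the EpiX arrays and 5.07, 5.99 and 7.17 on the BEGM arrays, and its difference of -1.09 ± 0.48 (SE; limma adjusted p = 0.241) did not pass. Nrcam, of the same family, differed by 0.52 ± 0.21 (SE; limma adjusted p = 0.197) and did not pass either. Basigin, Bsg, the brightest of the list described here, was at 15.74 to 16.19 in EpiX and 16.03 to 16.27 in BEGM. The median over the 59 genes was -0.12, and it was 0.01 with each array centred on its median, a setting that moved the median of all genes to 0.13. The calls in this list numbered 0 by limma without EpiX array 1, EpiX array 2 or BEGM array 2, where 14, 10 and 13 genes were lower and 3, 3 and 2 higher at an unadjusted p under 0.05. They numbered 2 without EpiX array 3, 3 without BEGM array 3 and 16 without BEGM array 1.

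**Figure D5:**
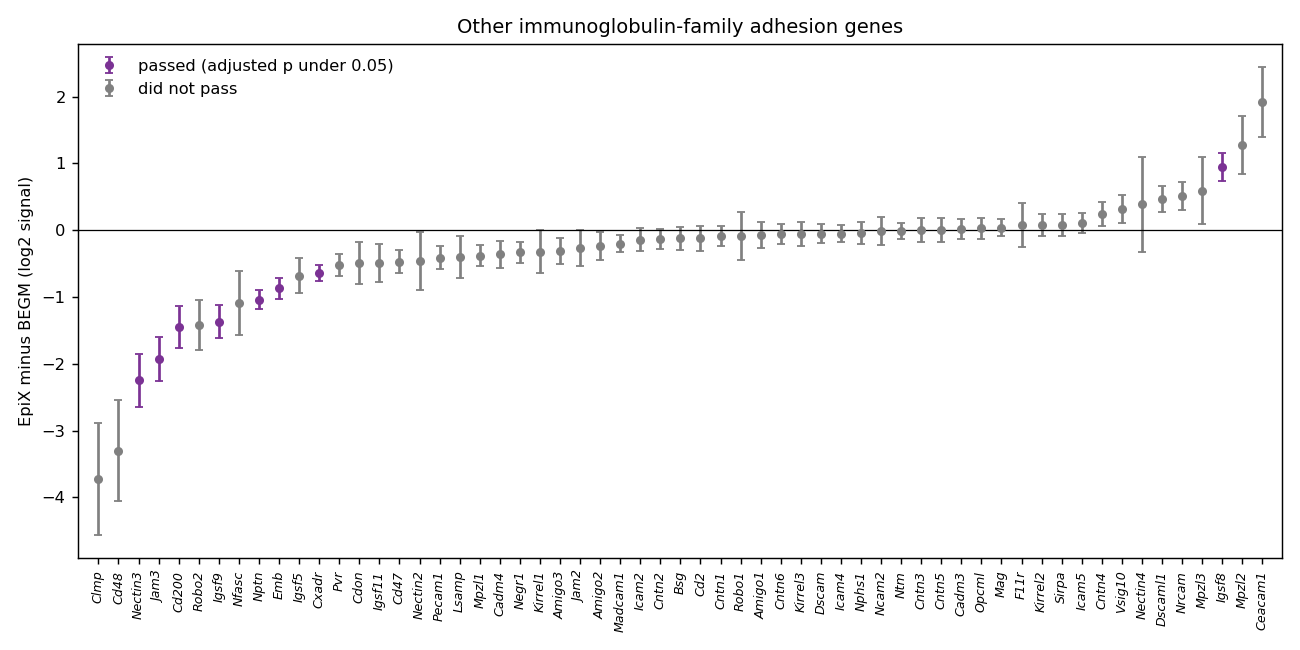
Difference EpiX minus BEGM (vertical axis, log2 signal, ± SE, n = 3 arrays per medium) for 59 other immunoglobulin-family adhesion genes, ordered by difference. The 8 genes in purple passed at a limma adjusted p under 0.05, and 7 of these 8 lie below 0.

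Binding partners, modifying enzymes and cytoskeletal anchors of the members formed a list of 35 genes, 28 of them measured. In EpiX 4 genes, or 14.3% of the list, fell by limma, where 3.15% of all genes fell. In this list 0 genes rose and 24 did not pass. At an unadjusted p under 0.05, 8 of the 28 were lower and 2 higher. The galectin Lgals1, a lectin that binds Mcam among other glycoproteins, was at 7.0, 7.32 and 10.25 on the EpiX arrays and 12.56, 15.00 and 16.43 on the BEGM arrays (-6.47 ± 1.17, SE; adjusted p = 0.0266). The integrin subunit Itga5 fell by 3.61 ± 0.60 (adjusted p = 0.0211). Sdc4, a syndecan that acts with integrins in the binding of Thy1, fell by 1.68 ± 0.17 (adjusted p = 0.00571), and the protease Bace1, which can shed L1-family molecules, by 2.00 ± 0.38 (adjusted p = 0.0311).

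The receptor Fgfr1, which Ncam1 can engage, was at 6.88, 6.32 and 7.87 on the EpiX arrays and 8.38, 10.75 and 12.85 on the BEGM arrays, and did not pass (adjusted p = 0.0956). The polysialyltransferases St8sia2 and St8sia4, which modify Ncam1, were at 4.28 to 4.51 and 3.45 to 3.58 on the EpiX arrays, against 4.14 to 4.56 and 3.19 to 3.65 on the BEGM arrays. Leukocyte integrin subunit Itgb2 (-0.13) and the Vcam1 receptor subunit Itga4 (-0.09) did not pass. The sheddases Adam10 (-0.19) and Adam17 (0.70) did not pass either, and these genes outside the calls were chosen after their values were seen.

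Calls in the partner list numbered 1 without EpiX array 1, EpiX array 2 or BEGM array 2, 2 without EpiX array 3 and 10 without BEGM array 1. The median over its 28 genes was -0.11, and 0.02 with each array centred on its median.

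Regulators and targets of NF-kappaB, the factor that induces Icam1 and Vcam1, were set beside those genes. Of 25 listed genes 22 were measured, and 5, or 22.7% of the list, fell by limma, where 3.15% of all genes fell. In this list 0 genes rose and 17 did not pass. At an unadjusted p under 0.05, 9 of the 22 were lower and 2 higher. The chemokines Ccl2 (-10.01 ± 0.67, SE; adjusted p = 0.00168) and Cxcl1 (-1.60 ± 0.30; adjusted p = 0.0303) fell, as did the cytokine Csf2 (-1.24 ± 0.17; adjusted p = 0.0125). The inhibitor Nfkbie (-1.30 ± 0.16; adjusted p = 0.00976) and the subunit Rela (-0.75 ± 0.14; adjusted p = 0.0321) also fell.

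Of the 22 genes 15 had a negative difference and 7 a positive one. The genes that follow did not pass and were chosen after their values were seen. The chemokine Cxcl2 was at 9.31, 10.77 and 10.06 on the EpiX arrays and 11.46, 13.62 and 11.37 on the BEGM arrays (-2.10 ± 0.65, SE; limma adjusted p = 0.118). The cytokine Tnf differed by -0.85 ± 0.32 (SE), the inhibitor of apoptosis Birc3 by -1.09 ± 0.31, the chemokine Ccl20 by -0.97 ± 0.70 and Il6 by -0.66 ± 0.15. Nfkbia, the main inhibitor and itself a target, was at 12.15, 12.55 and 12.15 on the EpiX arrays and 11.66, 11.88 and 11.19 on the BEGM arrays (0.71 ± 0.22, SE; limma adjusted p = 0.117). Sele, an endothelial adhesion molecule, differed by 0.14 and Il1b by 0.18. The chemokine Cxcl10 had the largest positive difference of the list (0.90 ± 0.35, SE). The subunit Nfkb1 differed by 0.50, Tnfaip2 by 0.36 and Sod2 by 0.20. The calls numbered 1 without EpiX array 2 or BEGM array 2, 2 without EpiX array 1 and 3 without BEGM array 3.

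Promoter entries were found for 4 of the 10 members (Icam1, Vcam1, Bcam and Alcam) in the RefSeq promoter table of build GRCr8. The 250 bases before the start of 3 of these genes are shown because Icam1 and Vcam1 are classic NF-kappaB targets, listed beside the genes above, while Bcam is the member that was higher in EpiX. Capitals mark matches on either strand to the NF-kappaB consensus, to GGAAATTCC, to TATAAA or to the GC box GGGCGG. Icam1 is read from chr8:27829595-27829844 on the plus strand, Vcam1 from chr2:206742784-206743033 and Bcam from chr1:88557359-88557608, both on the minus strand.
Icam1: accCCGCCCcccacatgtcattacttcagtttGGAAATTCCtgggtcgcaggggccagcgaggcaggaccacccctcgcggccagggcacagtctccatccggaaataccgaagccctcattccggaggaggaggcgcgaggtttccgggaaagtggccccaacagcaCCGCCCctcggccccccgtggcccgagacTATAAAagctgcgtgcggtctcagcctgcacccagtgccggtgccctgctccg
Vcam1: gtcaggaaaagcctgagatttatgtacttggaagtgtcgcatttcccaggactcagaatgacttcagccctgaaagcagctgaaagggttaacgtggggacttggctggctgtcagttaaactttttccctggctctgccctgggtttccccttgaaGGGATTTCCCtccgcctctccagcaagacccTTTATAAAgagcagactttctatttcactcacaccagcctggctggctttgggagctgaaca
Bcam: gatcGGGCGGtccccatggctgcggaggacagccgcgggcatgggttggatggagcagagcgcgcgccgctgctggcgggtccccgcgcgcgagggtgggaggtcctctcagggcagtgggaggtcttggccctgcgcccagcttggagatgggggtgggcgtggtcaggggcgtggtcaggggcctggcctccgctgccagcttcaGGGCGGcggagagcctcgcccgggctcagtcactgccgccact

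The Icam1 window held GGAAATTCC at positions -218 to -210, where -1 is the base before the gene's start, a sequence in 0.287% of the 33469 promoters of the table. GGAAATTCC was searched as a separate pattern, and the Icam1 window held no match to the NF-kappaB consensus. It also held TATAAA at -53 to -48 and 2 GC boxes. The Vcam1 window held 1 match to the NF-kappaB consensus, GGGATTTCCC at -93 to -84, and 3.54% of promoters held such a match. The consensus was GGGRNWYYCC, where R is A or G, N any base, W A or T and Y C or T. The nearby GGGTTTCCCC upstream has T where the consensus takes A or G, and was not counted. The TATAAA of the Vcam1 window at -60 to -55 overlapped a match on the other strand, and 12.9% of promoters held that motif. Bcam had 2 GC boxes, as found in 30.5% of promoters at least once, and no match to the other motifs, and Alcam had 1 match to the NF-kappaB consensus. These are matches of letters only.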

How the data were processed

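RNA of 6 cultures was hybridised as biotin-labelled material by the Affymetrix protocol, per the labels' protocols, and the Transcriptome Analysis Console is named, with no role stated, per the submitters' processing notes. The deposited table holds log2 values from 2.62 to 18.66, with 24834 probe sets on each array. That unit was read from the values; how the authors normalized and centred them, and the base, is not given in the sources used here. Of these probe sets 15049 had 1 gene symbol in the platform annotation, 0 had several and 9785 had none. Keeping the brightest probe set of 10 genes that had more than 1 left 15037 genes. No filter on dim probe sets was applied, and the number of arrays limits the precision.

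The model (limma 3.58.1 in R 4.3.3, lmFit and eBayes, medium as the only term) was fitted to all genes, with Benjamini-Hochberg adjustment and calls at an adjusted p under 0.05, and it was tested on simulated data. "Rose" and "fell" are used of called genes. Differences are EpiX minus BEGM.

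The labels do not state that replicates of one number come from one line. The titles of the arrays numbered 2 here carry the number 3, and those numbered 3 carry none. After subtracting group means, same-numbered arrays correlated over genes at 0.32, -0.01 and 0.32. Different-numbered arrays correlated at -0.37 to 0.16, below the values of numbers 1 and 3 but not that of number 2. Each line was divided between the media, so the design is paired, but the labels do not state which arrays share a line. The number was therefore a block only in an alternative. With that block 5 members and 1252 genes passed, against 3 and 869 without it. If the cultures are not independent, p-values measure only the spread between these samples.

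The members and all lists were chosen with earlier results of these data known. Named genes were all members, up to 6 called genes of each of the 3 lists of family, partner and NF-kappaB genes, the 2 brightest genes and the 2 largest differences of each of 6 marker lists, and the 5 genes most like Ncam1 and Bcam. Cdh5, Kdr, Ptprc, Chga, Chgb, Sox10, Myh11, Des, Rgs5, Myocd, Notch3 and Lama5 were named outside this rule. So were the genes said above to be named or chosen after their values were seen. Of 214 listed entries 184 were measured. Alternatives were the block, quantile normalization, median centring, array weights, a robust trended variance, probe set means, dropping the dimmest 25% of genes, and leaving out single arrays or both arrays of a number. Plots were made with matplotlib 3.10.9.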

Additional observations from a re-analysis of the deposited data

How the results depend on the processing

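The 10 adhesion genes had the same direction under every alternative setting in which they were measured, Vcam1 being left out of the fit without the dimmest 25% of genes. Ncam1 ranged from -8.03 to -6.61 and Bcam from 2.99 to 3.25. The direction of members chosen for their differences is no sign of stability. The fit without both arrays of number 2 called 0 genes by limma, with 1582 at an unadjusted p under 0.05, 4 of them members, and therefore 0 members, 0 other family genes, 0 partners and 0 NF-kappaB genes. The cause was not tested, although it leaves 2 arrays per medium.

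With array weights 1987 genes were called, against 869 in the full fit, among them 6 members, 13 other family genes and 9 partners. Without both arrays of number 1 there were 1351 calls and 5 members called. Without both arrays of number 3 there were 264 calls, with 1 other family gene and 3 NF-kappaB genes. With the sample number as a replicate block 1252 genes were called, among them 5 members (Ncam1, Bcam, Mcam, Cadm1 and Thy1). Cxadr and Cd74 lost the call with this block and 5 other named genes gained it. Leaving out single arrays gave 101 to 2089 calls over all genes, 2 to 6 members, 0 to 16 other family genes, 1 to 10 partners and 1 to 5 NF-kappaB genes. Centring each array on its median gave 560 genes called higher and 409 lower in EpiX, against 395 and 474 in the full fit, and ended the calls of Mcam, Cd74 and Cxadr. Quantile normalization ended those of Mcam and Cd200. The causes of these changes were not tested. Without detection calls, how far dim signals such as those of Vcam1 and L1cam lie above background is unknown. The same is true of the EpiX levels of Mcam (mean 5.1) and Ncam1 (mean 6.03). The sizes of the differences of Mcam and Ncam1 carry that limit.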
